A study of Mus musculus with 8 samples.

Results

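The 10 genes described here write, copy, protect and erase DNA methylation: the DNA methyltransferase genes Dnmt1, Dnmt3a and Dnmt3b, their catalytically inactive cofactor Dnmt3l, the maintenance factor Uhrf1 and its paralogue Uhrf2, the methylcytosine oxidases Tet1, Tet2 and Tet3, and Dppa3, a maternal protein that guards methylated DNA. They were picked by function and name, with no measured value in the rule, from a table of 37310 genes measured in mouse 2-cell embryos. Embryos grew from the fertilized egg in G1 medium, which held only the solvent DMSO for the 4 control libraries and 6 µM triclocarban, an antibacterial compound of soaps, for the 4 treated ones. The labels also name 2 and 4 µM for the culture experiment, but no library here carries those doses. All embryos are given as Mus musculus, and no strain, genotype, parental age, hour of collection or number of embryos per library is stated. Nothing in the labels shows that the replicates of a group were separate cultures, so the p-values rest on a spread among libraries that may be technical. The series title ties the compound to the maternal-to-zygotic transition and to epigenetic modifications, and the genes below carry out 1 such modification.

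In mammals, DNMT1 copies methylation onto the new strand after replication, and UHRF1 leads it there by binding hemimethylated DNA. DNMT3A and DNMT3B add methylation to unmethylated sites, and in the growing oocyte DNMT3A works with DNMT3L. TET enzymes oxidize methylated cytosine, with TET3 as the form that the egg supplies to the zygote, while DPPA3 (also called STELLA or PGC7) shields the maternal genome from this oxidation and restrains UHRF1 in the oocyte. Cleavage-stage mouse embryos lose much of the methylation they inherit, and the egg supplies many of these proteins to them.

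Expression was given as FPKM (sequenced fragments relative to transcript length and to all mapped fragments of a library), a scale that allows levels of different genes to be compared within a library as far as the transcript lengths used are right. It is a share of each library's RNA and not an amount per embryo, so fewer transcripts of a gene per embryo and a larger pool of other RNA cannot be told apart. The 2-cell label was checked against marker genes: 9 of 10 markers of 2-cell genome activation were above 1 FPKM in every library, and Duxf3 was at 0 to 0.6 in controls and 1.28 to 1.53 with triclocarban. With triclocarban, 4 of these 10 were called higher and 4 lower by the test given below, and their sum was 683 to 884 in controls and 368 (library 2) to 1005 with triclocarban. Of 13 oocyte-derived markers, 8 were called higher and 1, Zp3, lower. The summed FPKM of the oocyte-derived markers was 6603, 6155, 2787 and 2871 in controls 1 to 4 and 8006 to 11585 with triclocarban, a sum carried mostly by Btg4 and Oosp1, in which controls 1 and 2 lay apart from controls 3 and 4. Of 9 cumulus and granulosa markers, 5 were under 1 FPKM in every library and their sum was 23.4 to 32.3 in controls and 9.63 to 19.5 in treated libraries, mainly from Amhr2 in controls and from Cyp19a1 with triclocarban. Of 5 sperm markers, 3 were under 1 FPKM throughout, and of 7 blastocyst markers Cdx2 and Sox17 were. On the first principal component (69.1% of the variance), controls 1 to 4 were at 27.8, 36.5, 101.7 and 97.8, and the treated libraries at -69.6 to -62.7. The split of the controls thus lay along the same component as the difference between the groups. Triclocarban library 2 had the lowest FPKM sum of the 8 (477882) and stood apart on the second principal component (-63.3, 12.6% of the variance). Mitochondrial transcripts made up 16.6, 17.6, 22.6 and 24.3% of the FPKM sum in controls 1 to 4 and 11.1 to 17.6% with triclocarban, and 12828 to 13541 genes reached 1 FPKM in controls against 11788 to 11957 with triclocarban. The part of these differences in the results was not tested. Results that rest on the control pairs or on that library are given with and without them.

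The annotated starts of the genes frame what the gene-level values add together. RefSeq (GRCm38.p6, the assembly of the files' build mm10) held promoter windows for 9 of the 10 members, 16 windows in all, because Dnmt1, Dnmt3a and Dnmt3l have 3 annotated starts each and Uhrf1 has 2. Gene-level FPKM does not separate these starts. The 250 bases before 5 of them are shown, for the paralogue pairs Uhrf1 and Uhrf2 and Tet3 and Tet1, whose levels moved apart in the data below, and for the CpG-rich start of Dnmt1, the partner of UHRF1. Sequences run 5′ to 3′ on the gene's strand up to the base before the annotated start, with CpG dinucleotides in capitals. The starts used for Tet3 (83441678) and Tet1 (62887324) lie inside the gene spans given below, whose upstream ends are at 83459084 and 62908996. Sequence at those upstream ends is not shown, and which start these embryos use was not tested.
Uhrf1, downstream start (chr17:56304063-56304312, plus strand): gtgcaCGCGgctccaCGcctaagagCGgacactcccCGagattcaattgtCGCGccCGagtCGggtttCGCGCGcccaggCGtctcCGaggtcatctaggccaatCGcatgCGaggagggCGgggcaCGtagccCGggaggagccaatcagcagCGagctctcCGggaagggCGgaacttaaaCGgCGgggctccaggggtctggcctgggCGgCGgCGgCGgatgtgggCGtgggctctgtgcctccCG
Uhrf2 (chr19:30030263-30030512, plus strand): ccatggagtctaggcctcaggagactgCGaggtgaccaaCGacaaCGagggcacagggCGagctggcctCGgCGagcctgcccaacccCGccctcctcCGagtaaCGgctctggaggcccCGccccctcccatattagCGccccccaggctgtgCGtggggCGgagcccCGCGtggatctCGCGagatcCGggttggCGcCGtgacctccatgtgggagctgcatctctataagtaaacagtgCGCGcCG
Tet3 (chr6:83441679-83441928, minus strand): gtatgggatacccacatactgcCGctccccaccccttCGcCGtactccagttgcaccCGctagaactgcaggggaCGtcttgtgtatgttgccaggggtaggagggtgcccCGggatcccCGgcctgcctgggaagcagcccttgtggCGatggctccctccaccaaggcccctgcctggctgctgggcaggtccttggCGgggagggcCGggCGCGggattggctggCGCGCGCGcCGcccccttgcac
Tet1 (chr10:62887325-62887574, minus strand): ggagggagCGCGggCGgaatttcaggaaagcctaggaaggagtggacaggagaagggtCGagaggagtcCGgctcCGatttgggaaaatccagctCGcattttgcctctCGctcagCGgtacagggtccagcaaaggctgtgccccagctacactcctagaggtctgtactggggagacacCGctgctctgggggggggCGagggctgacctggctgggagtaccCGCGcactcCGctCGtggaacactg
Dnmt1, CpG-rich start (chr9:20952624-20952873, minus strand): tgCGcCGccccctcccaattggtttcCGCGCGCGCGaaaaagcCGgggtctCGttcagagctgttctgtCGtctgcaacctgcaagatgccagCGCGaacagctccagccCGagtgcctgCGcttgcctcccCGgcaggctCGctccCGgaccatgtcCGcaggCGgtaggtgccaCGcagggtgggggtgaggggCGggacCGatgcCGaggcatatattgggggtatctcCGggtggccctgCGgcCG

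The downstream Uhrf1 start held 30 CpG dinucleotides in 250 bases, the CpG-rich Dnmt1 start 26, Uhrf2 23, Tet3 17 and Tet1 15, where the median over all 32851 RefSeq windows of the same length was 6. The upstream Uhrf1 start held 10, and the most upstream of the 3 Dnmt1 starts held 2. The 3 Dnmt3l windows were CpG-poor as well, with 3 to 5. Across members the richest was Tet2, with 51 CpG, more than 99.9% of all windows. On both strands, CCAAT was found in 5 of the 16 member windows (33.8% of all windows), GGGCGG in 12 (32.7%) and TATAAA in 0 (12.4%). TTTCGCGC, a form of the E2F consensus, was found in 2, the downstream Uhrf1 start on the gene's strand, 185 bases before the start, and the CpG-rich Dnmt1 start on the opposite strand, 219 bases before it. That sequence occurs in 0.3% of all windows. None of the 4 motifs contains another, and a match describes the sequence only.

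With triclocarban, Uhrf2 and Tet1 were called lower, Dppa3 was called higher, and the other 6 members that could be tested did not pass the threshold. Of these calls, only that of Uhrf2 held against each pair of controls alone. The test was limma on log2(FPKM + 1) over the 12941 genes that reached 1 FPKM in 4 or more libraries, with Benjamini-Hochberg adjustment over all of them and a threshold of 0.05. Tet2 was below this filter, so 9 of the 10 members were tested. Of these, 1 was higher, where 11.3% of all genes tested were called higher, and 2 were lower, where 30.8% were called lower. In either direction 3 of 9 were called, against 42.1% of all genes tested. The groups' libraries did not overlap for 2 of the 9, Uhrf2 and Tet1, against 40.2% of all genes tested. In both, all treated libraries were below all controls, as for 30.0% of all genes tested, and 0 of the 9 showed the opposite order, found for 10.2%. The shares of members called were near or under those of all genes tested. Their median log2 change was 0.34 and that of all genes tested -0.19. The median of the members depended on the controls used. It was 0.647 without controls 1 and 2 (all genes -0.12) and -0.063 without controls 3 and 4 (all genes -0.303).

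**Figure D1:**
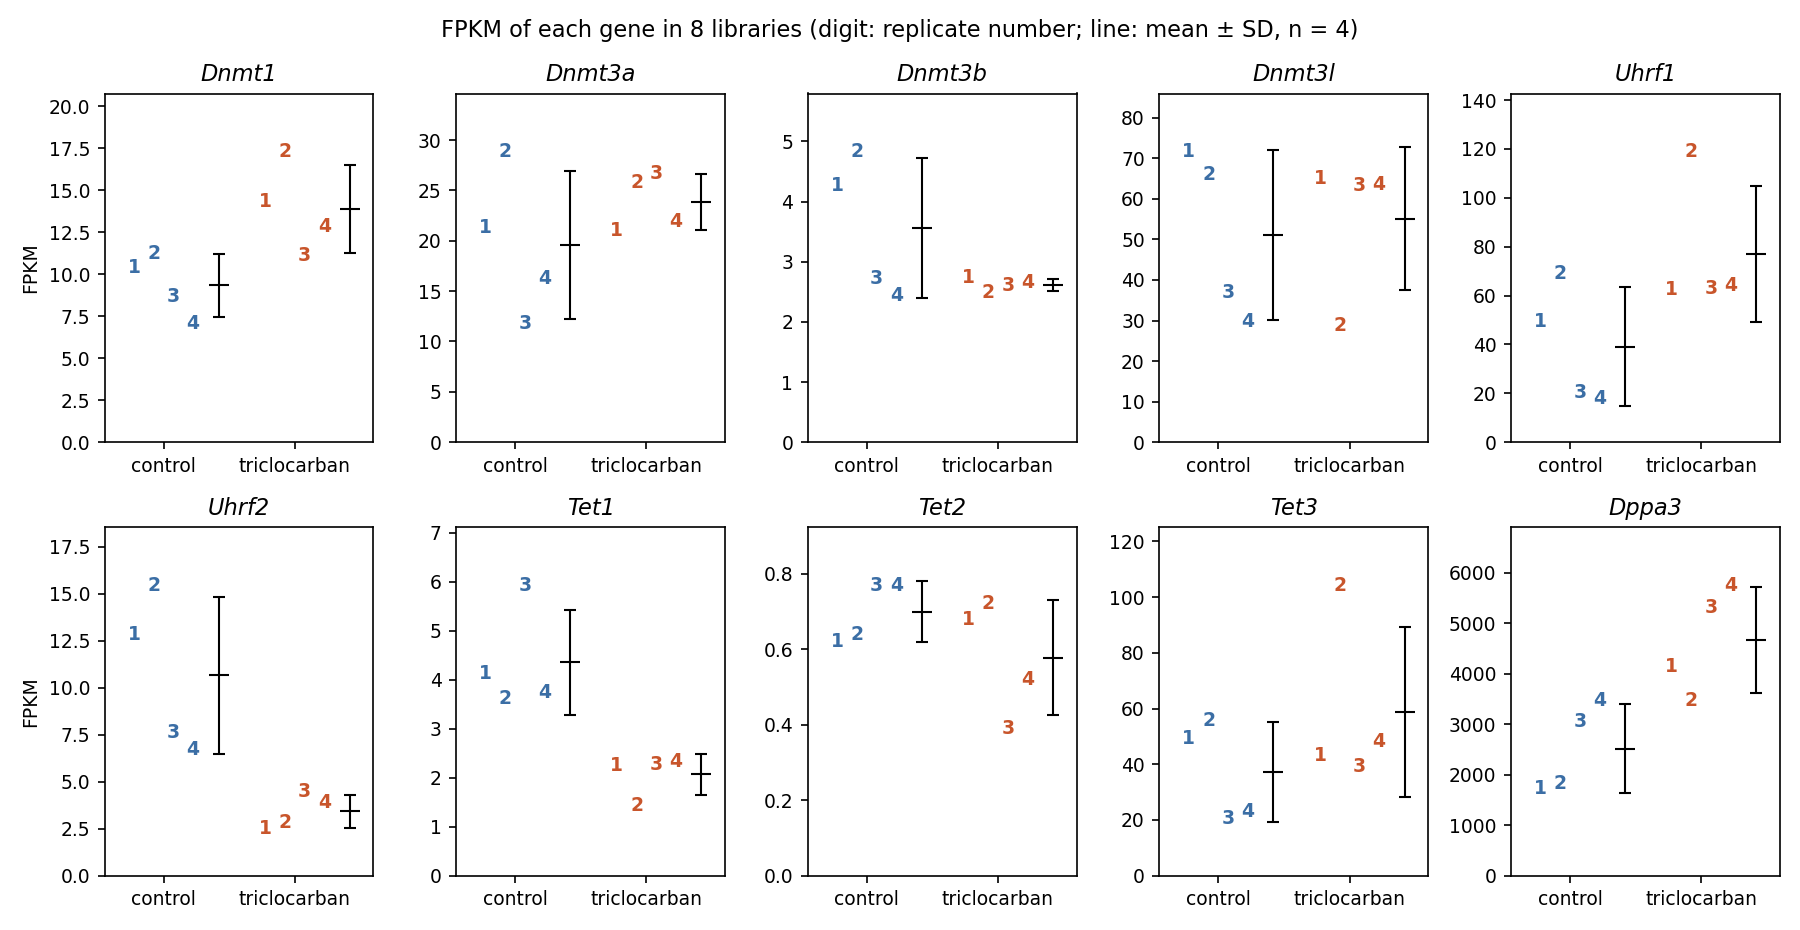
FPKM of the 10 genes (vertical axis from 0, scaled per gene) in the 4 control (blue) and 4 triclocarban (orange) libraries, with the replicate number as the point and the mean ± SD (n = 4) beside each group. The groups are separate for Uhrf2 and Tet1, and controls 1 and 2 lie above controls 3 and 4 for 7 of the 9 genes tested.

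Levels differed widely among the members. In controls Dppa3 was the most abundant by far, with a mean of 2518 ± 876 FPKM (SD, n = 4), the rank of 20 among all genes tested. Dnmt3l (51.1 ± 20.9), Uhrf1 (39.1 ± 24.4) and Tet3 (37.2 ± 18.0) came next, with ranges over the controls that overlapped. Within a library, Dnmt3l was above Tet3 in every control and above Uhrf1 in every control but control 2. Dnmt3a (19.6 ± 7.33) was followed by Uhrf2 (10.7 ± 4.18) and Dnmt1 (9.35 ± 1.87), which overlapped, and then by Tet1 (4.35 ± 1.07) and Dnmt3b (3.56 ± 1.16), which overlapped too. Tet2 was the lowest at 0.702 ± 0.0825. With triclocarban the order below Dppa3 was Uhrf1 (77.0 ± 27.9), Tet3 (58.7 ± 30.6), Dnmt3l (55.2 ± 17.6), Dnmt3a (23.9 ± 2.80), Dnmt1 (13.9 ± 2.62), Uhrf2 (3.43 ± 0.892), Dnmt3b (2.61 ± 0.104), Tet1 (2.07 ± 0.422) and Tet2 (0.578 ± 0.153). Uhrf2 lay above Dnmt1 in controls 1 and 2 and below it in controls 3 and 4 and in all 4 treated libraries.

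Of the paralogues Uhrf1 and Uhrf2, only Uhrf2 was called. Uhrf2 (ENSMUSG00000024817, chromosome 19, 30030513 to 30093722, plus strand, GRCm38), whose protein resembles UHRF1 and binds oxidized methylcytosine but does not replace UHRF1 in maintenance, had 12.85, 15.45, 7.63 and 6.73 FPKM in controls 1 to 4. In triclocarban libraries 1 to 4 it had 2.53, 2.85, 4.45 and 3.87. Every treated library lay below every control, although the controls themselves split into a higher and a lower pair. The log2 change was -1.35 with a standard error of 0.31 (95% interval -2.02 to -0.67, limma adjusted p = 0.00462), a 3.11-fold lower mean. It kept its direction and stayed past the threshold under every alternative tried, with adjusted p from 0.00215 against controls 1 and 2 alone (log2 change -1.79) to 0.0214 against controls 3 and 4 alone (-0.90). Without triclocarban library 2 it was -1.29 (adjusted p = 0.0111).

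Uhrf1 (chromosome 17, 56303321 to 56323486, plus strand) had 49.19, 68.95, 20.3 and 17.97 FPKM in the controls. The treated libraries had 62.33, 118.91, 62.78 and 64.0. The treated libraries lay well above controls 3 and 4, and 3 of them lay below control 2. The log2 change of 1.12 (standard error 0.43, 95% interval 0.18 to 2.06) missed the threshold (limma adjusted p = 0.0547). It was 1.90 against controls 3 and 4 alone (adjusted p = 0.00141) and 0.34 against controls 1 and 2 alone (adjusted p = 0.494), and 0.89 without triclocarban library 2 (adjusted p = 0.126). The threshold was passed with other scalings, at 1.42 for median of ratios (adjusted p = 0.0144) and 1.3 for quantiles (adjusted p = 0.0384), and without control 1 (adjusted p = 0.0365) or control 2 (adjusted p = 0.0132). Uhrf1 therefore has no call that holds for both pairs of controls. A processed pseudogene, Gm5648, matches 1590 bases of the Uhrf1 transcript at 98.3% identity, and was listed at 0.2 to 0.68 FPKM.

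The ratio of the paralogues within a library is not changed by multiplying a whole library by a factor. Uhrf1 exceeded Uhrf2 3.83-fold, 4.46-fold, 2.66-fold and 2.67-fold in controls 1 to 4. In treated libraries 1 to 4 it exceeded it 24.6-fold, 41.7-fold, 14.1-fold and 16.5-fold. The lowest treated ratio was thus above the highest control ratio, for both pairs of controls. Uhrf2 supplied 18.3 to 27.3% of the FPKM of the pair in controls and 2.34 to 6.62% with triclocarban.

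Dnmt1 (chromosome 9, 20907209 to 20959888, minus strand), the maintenance methyltransferase, had 10.41, 11.25, 8.68 and 7.04 FPKM in the controls and 14.31, 17.29, 11.1 and 12.83 FPKM with triclocarban. The ranges overlapped only through treated library 3, which lay just under control 2. Its log2 change was 0.53 (standard error 0.26, 95% interval -0.03 to 1.09, limma adjusted p = 0.12). It passed the threshold under both other scalings (0.81 for median of ratios and 0.92 for quantiles, adjusted p = 0.0205 and 0.0109) and against controls 3 and 4 alone (0.74, adjusted p = 0.0408), but not against controls 1 and 2 alone (0.32, adjusted p = 0.408). Within a library Uhrf1 exceeded Dnmt1 2.34-fold to 6.13-fold in controls and 4.36-fold to 6.88-fold in treated libraries, which overlapped. The oocyte and somatic forms of DNMT1 start from different first exons, which these values do not separate.

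None of the de novo methylation genes passed the threshold. Dnmt3a (chromosome 12, 3806007 to 3914443, plus strand), the main de novo enzyme of the oocyte, had 21.35, 28.86, 11.79 and 16.22 FPKM in controls and 21.03, 25.78, 26.7 and 21.91 with triclocarban. Its treated libraries lay inside the range of the controls, with a log2 change of 0.34 (95% interval -0.30 to 0.98, limma adjusted p = 0.38). Against controls 3 and 4 alone it was 0.74 (adjusted p = 0.0332), and against controls 1 and 2 alone -0.06 (adjusted p = 0.875). Dnmt3l (chromosome 10, 78041947 to 78063622, plus strand), which stimulates DNMT3A and carries no catalytic activity, had 71.66, 66.07, 36.86 and 29.77 FPKM in controls and 64.91, 28.77, 63.32 and 63.62 with triclocarban. Treated library 2 lay below every control while the other 3 lay near controls 1 and 2. The log2 change was 0.13 (95% interval -0.67 to 0.94, adjusted p = 0.803) and 0.41 without that library (adjusted p = 0.317).

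Dnmt3b (chromosome 2, 153649450 to 153687730, plus strand), the de novo enzyme best known from the embryo around implantation, had 4.26, 4.83, 2.72 and 2.44 FPKM in controls and 2.73, 2.48, 2.6 and 2.65 with triclocarban. The treated libraries lay close together and level with controls 3 and 4. The log2 change was -0.30 (95% interval -0.84 to 0.24, limma adjusted p = 0.355), -0.62 against controls 1 and 2 alone (adjusted p = 0.0673) and 0.01 against controls 3 and 4 alone (adjusted p = 0.964). Within a library Dnmt3a exceeded Dnmt3b 5.01-fold, 5.97-fold, 4.33-fold and 6.65-fold in controls and 7.71-fold, 10.4-fold, 10.3-fold and 8.27-fold with triclocarban, so these ratios did not overlap even though neither gene was called. Dnmt3b made up 3.96 to 4.54% of the summed FPKM of the 4 Dnmt genes in controls and 2.51 to 3.34% with triclocarban. Dnmt3l over Dnmt3a overlapped between the groups (1.84-fold to 3.36-fold in controls, 1.12-fold to 3.09-fold with triclocarban). The antisense genes Dnmt3aos and Dnmt3bos, which overlap their namesakes, were at most 1.18 and 0.42 FPKM in any library, and Aire, which overlaps Dnmt3l on the other strand, at most 3.77.

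**Figure D2:**
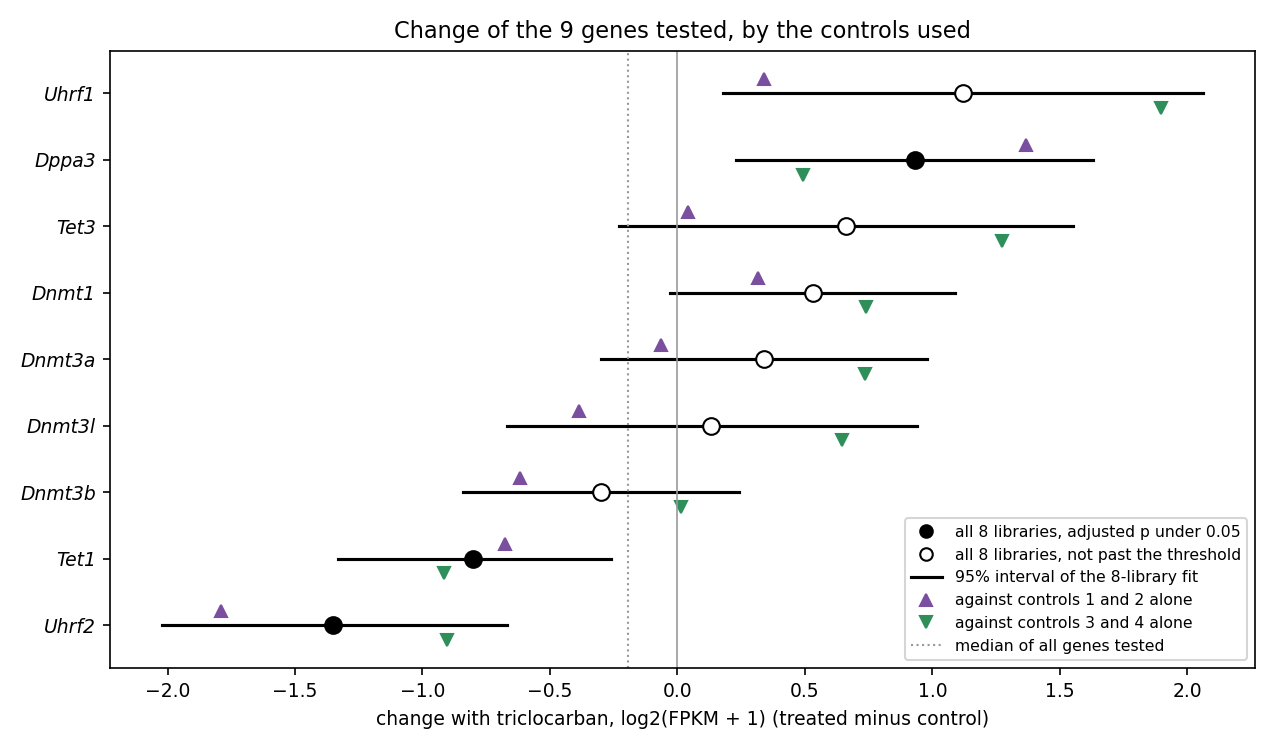
Change of the 9 genes tested on the log2(FPKM + 1) scale (treated minus control), with the 95% interval of the fit over 8 libraries, beside the change against each pair of controls. Uhrf2 and Tet1 lie below 0 for both pairs, Dppa3, Uhrf1, Tet3 and Dnmt1 above 0 for both, and the sign differs between the pairs for Dnmt3a, Dnmt3l and Dnmt3b.

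Among the oxidases, Tet1 was called lower and the far more abundant Tet3 did not pass the threshold. Tet1 (chromosome 10, 62804570 to 62908996, minus strand), which acts in the inner cell mass and in germ cells, had 4.12, 3.62, 5.93 and 3.74 FPKM in controls and 2.25, 1.44, 2.26 and 2.32 with triclocarban. All treated libraries lay below all controls, and here the pairs of controls overlapped. The log2 change was -0.80 (standard error 0.24, 95% interval -1.33 to -0.26, limma adjusted p = 0.0205), a 2.11-fold lower mean, and -0.69 without triclocarban library 2 (adjusted p = 0.034). The call was lost without control 3 (-0.66, adjusted p = 0.0607), against controls 1 and 2 alone (-0.68, adjusted p = 0.0666), and under both other scalings (-0.57 for median of ratios and -0.38 for quantiles, adjusted p = 0.0792 and 0.21). A small nuclear RNA gene inside Tet1 on the same strand, Gm26479, was listed at 0.57 to 5.06 FPKM, and reads shared with it cannot be assigned from these values.

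Tet3 (chromosome 6, 83362373 to 83459084, minus strand), the oxidase of the egg and zygote, had 49.34, 55.75, 20.55 and 23.13 FPKM in the controls and 43.04, 104.3, 39.31 and 48.2 FPKM with triclocarban. Treated library 2 was far above all others, and the remaining 3 lay between the pairs of controls. The log2 change was 0.66 (standard error 0.41, 95% interval -0.23 to 1.55, limma adjusted p = 0.217) and 0.35 without treated library 2 (adjusted p = 0.46). Against controls 3 and 4 alone it was 1.27 (adjusted p = 0.0248), and against controls 1 and 2 alone 0.04 (adjusted p = 0.946). Tet2 (chromosome 3, 133463679 to 133545139, minus strand) stayed between 0.39 and 0.77 FPKM in all 8 libraries, below the filter, and was not tested.

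Tet3 supplied most of the FPKM of the TET family in every library, 91.2, 92.9, 75.4 and 83.7% in controls 1 to 4 and 93.6 to 98.0% with triclocarban. The share of Tet1 was 7.62, 6.03, 21.8 and 13.5% in controls and 1.35 to 5.38% with triclocarban, with no overlap. Tet3 exceeded Tet1 3.47-fold to 15.4-fold in controls and 17.4-fold to 72.6-fold in treated libraries. Of the treated libraries, 3 were within 17.4-fold to 20.7-fold, and library 2 set the upper end. Tet3 and Uhrf1 stayed close to each other in each library, with Tet3 over Uhrf1 at 1.0, 0.809, 1.01 and 1.29 in controls and 0.69, 0.877, 0.626 and 0.753 with triclocarban, which overlapped. Of 11 gene pairs compared in this way, the groups did not overlap for 3 and overlapped for 8, and the share among all pairs of genes in the table was not computed.

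**Figure D3:**
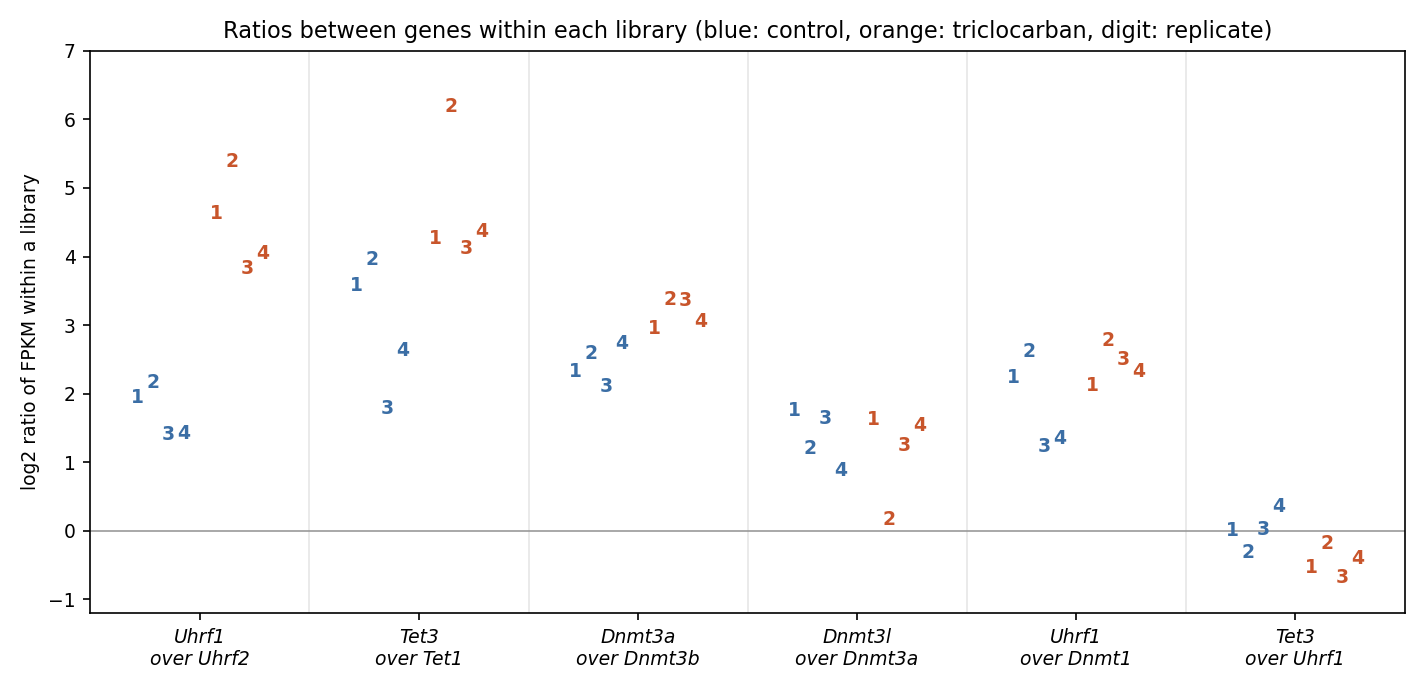
Log2 ratio of FPKM between 2 genes of the same library for 6 pairs, in control (blue) and triclocarban (orange) libraries, with the replicate number as the point. The groups are separate for Uhrf1 over Uhrf2 (1.41 to 2.16 in controls, 3.82 to 5.38 with triclocarban), for Tet3 over Tet1 and for Dnmt3a over Dnmt3b, and overlap for the other 3 pairs.

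Dppa3 (ENSMUSG00000046323, chromosome 6, 122626410 to 122630272, plus strand) was the only member called higher in the fit over all libraries. It had 1726.72, 1821.19, 3053.03 and 3469.86 FPKM in the controls. With triclocarban it had 4145.8, 3465.76, 5305.3 and 5756.99. The groups touched at 1 point, where treated library 2 lay just under control 4. The log2 change was 0.93 (standard error 0.32, 95% interval 0.23 to 1.63, limma adjusted p = 0.0348), a 1.85-fold higher mean, and the transcript went from 0.323 to 0.573% of a library's FPKM sum in controls to 0.725 to 1.02% with triclocarban. Alone among the 9 members tested, Dppa3 was lower in both of controls 1 and 2 than in controls 3 and 4. Its change was 1.37 against controls 1 and 2 alone (adjusted p = 0.00744) and 0.49 against controls 3 and 4 alone (adjusted p = 0.165). The call was also lost without control 1, control 2, treated library 1, treated library 3 or treated library 4 (adjusted p from 0.0634 to 0.102), with no filter on low genes (adjusted p = 0.149) and with quantile normalization (0.71, adjusted p = 0.0642), and it held without treated library 2 (1.06, adjusted p = 0.0209). Dppa3-ps, a transcribed pseudogene that matches 451 bases at 98.2% identity, had 6.67 to 31.84 FPKM, so the split of reads between the copies is uncertain.

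The spread within the controls was itself patterned. Controls 1 and 2 were both above controls 3 and 4 for 7 of the 9 members tested (Dnmt1, Dnmt3a, Dnmt3b, Dnmt3l, Uhrf1, Uhrf2 and Tet3), where 43.3% of all genes tested showed this order. They were both below for 1, Dppa3, where 30.9% of all genes did, and apart in either direction for 8, where 74.3% did. The mean of controls 1 and 2 over that of controls 3 and 4 was 3.09 for Uhrf1, 2.41 for Tet3, 2.07 for Dnmt3l, 1.97 for Uhrf2, 1.79 for Dnmt3a, 1.76 for Dnmt3b and 1.38 for Dnmt1. For 5 of these 7 genes the gap was larger than that between the group means, which was 1.97-fold for Uhrf1, 1.58-fold for Tet3, 1.08-fold for Dnmt3l and 1.22-fold for Dnmt3a, all higher with triclocarban, and 1.36-fold lower for Dnmt3b. For Uhrf2 and Dnmt1 it was smaller. The summed oocyte-derived markers followed the same split, as given above, and their part in the members' values was not tested. Members called higher were Dppa3 alone against controls 1 and 2, and Uhrf1, Tet3, Dnmt3a and Dnmt1 against controls 3 and 4, so the pairs gave no call higher in common.

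The genes most like 5 of the members in profile were found as the protein-coding genes with the smallest root mean square difference in centred log2(FPKM + 1) over the 8 libraries. For Dnmt1 they were G3bp2 (0.10), Gon4l (0.107) and Ccdc47 (0.11), and for Dnmt3a Pbx2 (0.122), Mydgf (0.135) and Mpnd (0.147). For Uhrf1 they were Rtl8b (0.117), Slc9b1 (0.164) and Arl14epl (0.183), and for Tet3 the cell cycle phosphatase gene Cdc25b (0.094), the sorting nexin gene Snx9 (0.125) and Hivep1 (0.138). Cdc25b had 22.19, 25.79, 7.43 and 9.34 FPKM in controls and 19.86, 46.07, 18.63 and 21.36 with triclocarban. Because it was picked for its likeness to Tet3, it has the same split of the controls and high value in treated library 2. For Dppa3 they were Lrr1 (0.176), the peroxiredoxin gene Prdx3 (0.188) and Mrpl35 (0.199). Some of these genes lay near the floor, where adding 1 to FPKM shrinks fold differences. Pbx2 had 0.28 to 1.61 FPKM over the 8 libraries, and Rtl8b had 1.76, 2.08, 0.02 and 0.02 in controls. Among the members, Tet3 and Uhrf1 were each other's nearest (0.308), as were Dnmt1 and Dnmt3a (0.315).

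The wider pathway was described by 69 genes in 6 lists by role, of which 55 could be tested. Of these, 9 were higher and 20 lower with triclocarban, together 52.7%, beside 42.1% of all genes tested, and the median log2 change was -0.22 beside -0.19. The split depended on the scaling, with 11 higher and 14 lower after median-of-ratios scaling and 10 and 9 after quantile normalization. These scalings moved the median of all genes tested from -0.19 to 0.06 and 0.14. In each list some genes rose and others fell.

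**Figure D4:**
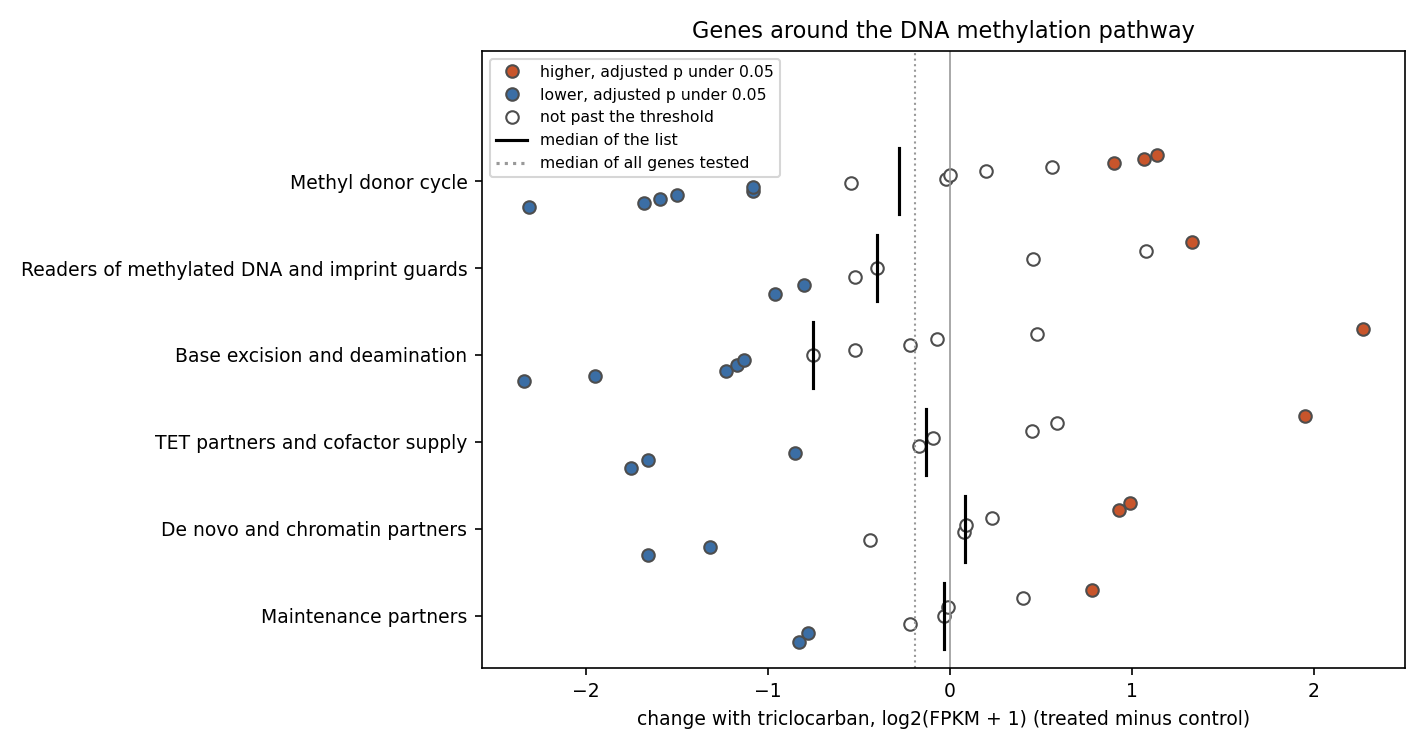
Change with triclocarban on the log2(FPKM + 1) scale for the 55 tested genes of the 6 lists, each point a gene, filled where the adjusted p was under 0.05, with the median of each list (black bar) and of all genes tested (dotted line, -0.19). Each list holds genes called in both directions, from Gadd45b at -2.34 to Neil3 at 2.27.

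Of 7 tested partners of maintenance methylation, 1 was higher and 2 lower. Pcna, the sliding clamp that carries DNMT1 at the replication fork, went from a mean of 152 ± 33.1 FPKM to 257 ± 14.1 (SD, n = 4 per group), with a log2 change of 0.78 (limma adjusted p = 0.0237), and this call was lost without control 1 or 3 or treated library 1, 3 or 4 (adjusted p from 0.0523 to 0.0603). Pclaf, whose ubiquitinated protein is another UHRF1-dependent platform for DNMT1, had 1.6 ± 0.41 and 0.499 ± 0.465 FPKM (-0.83, adjusted p = 0.0191), with no call after quantile normalization (adjusted p = 0.115), without a filter (adjusted p = 0.0535) or against controls 3 and 4 alone (adjusted p = 0.09). Cdca7, the activator of the remodeler HELLS, was the other lower one (-0.78, adjusted p = 0.0194), with no call under either scaling (adjusted p = 0.0751 and 0.215), without control 3 (adjusted p = 0.0563) or against controls 1 and 2 alone (adjusted p = 0.0737).

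Among 8 tested partners of de novo methylation and related enzymes, 2 were higher and 2 lower. Kdm1b, the H3K4 demethylase that oocytes need to set methylation at many imprinted genes, went from a mean of 35.7 ± 6.82 FPKM to 72.7 ± 18.9 (SD, n = 4 per group), with a log2 change of 0.99 (limma adjusted p = 0.0126), and 0.77 against controls 1 and 2 alone (adjusted p = 0.0852). The other higher one was the tRNA methyltransferase gene Trdmt1 (0.93, adjusted p = 0.0178), not called without control 4, without treated library 1 or against controls 1 and 2 alone (adjusted p = 0.0584, 0.0541 and 0.105). Ehmt2, the H3K9 methyltransferase G9a, had 2.01, 3.06, 4.6 and 4.92 FPKM in controls and 0.6, 0.14, 0.2 and 0.85 with triclocarban, a log2 change of -1.66 (adjusted p = 0.000711). Setd2, the H3K36 methyltransferase whose mark recruits DNMT3A, was the other lower one (-1.32, adjusted p = 0.0222). It lost its call under both scalings, without a filter, without control 3, control 4 or treated library 1, and against controls 1 and 2 alone (adjusted p from 0.0594 to 0.209).

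Of 8 tested genes for TET partners and cofactor supply, 1 was higher and 3 lower. Idh1, the cytosolic isocitrate dehydrogenase that makes the TET cosubstrate 2-oxoglutarate, went from a mean of 6.97 ± 1.29 FPKM to 30.2 ± 6.94 (SD, n = 4 per group), with a log2 change of 1.95 (limma adjusted p = 0.000222). The mitochondrial enzyme gene Idh2 went the other way, from 6.06 ± 2.57 to 1.14 ± 0.212 (-1.66, adjusted p = 0.000946). Ogt, the O-GlcNAc transferase that binds TET proteins, went from 20.6 ± 4.6 to 5.45 ± 1.25 FPKM (-1.75, adjusted p = 0.000422). The zinc finger gene Cxxc5 was the remaining lower one, just past the threshold (-0.85, adjusted p = 0.0498), and lost its call under 13 of the alternatives tried (adjusted p from 0.0534 to 0.326).

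Base excision and deamination genes were higher in 1 and lower in 5 of 11 tested, beside 11.3% and 30.8% of all genes tested, with a median of -0.75 beside -0.19. After quantile normalization 1 was higher and 2 lower, with a median of -0.37 beside 0.14. Neil3, a DNA glycosylase gene, had 58.78, 45.96, 23.35 and 11.9 FPKM in the controls and 249.66, 77.45, 156.06 and 155.23 with triclocarban, a log2 change of 2.27 (limma adjusted p = 0.00314), or 1.48 against controls 1 and 2 alone and 3.06 against controls 3 and 4 alone. All 3 Gadd45 genes, stress-induced and linked to active demethylation, were lower. Gadd45b had 23.88, 28.4, 77.37 and 56.48 FPKM in controls and 7.94, 4.98, 6.9 and 10.87 with triclocarban (-2.34, adjusted p = 0.000661), and Gadd45a went from 19.9 ± 7.02 to 4.31 ± 1.28 (-1.95, adjusted p = 0.000466). Gadd45g, at -1.23 (adjusted p = 0.0193), overlapped between the groups and lost its call against controls 3 and 4 alone (adjusted p = 0.144), without a filter (adjusted p = 0.0637), with quantile normalization (adjusted p = 0.0607) and without treated library 3 (adjusted p = 0.0619).

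Of 7 tested readers of methylated DNA and imprint guards, 1 was higher and 2 lower, and under either other scaling 1 was higher and 0 lower. Zbtb33, which encodes the methyl-CpG binding protein KAISO, went from a mean of 4.82 ± 2.16 FPKM to 13.0 ± 1.58 (SD, n = 4 per group), with a log2 change of 1.33 (limma adjusted p = 0.00337). Trim28, the corepressor that protects imprints together with ZFP57, went from 36.5 ± 6.38 to 18.4 ± 4.55 FPKM (-0.96, adjusted p = 0.0117), and had no call after either other scaling (-0.67 and -0.65, adjusted p = 0.0814 and 0.0675) or against controls 1 and 2 alone (-0.75, adjusted p = 0.0758). Mbd4, a thymine glycosylase gene with a methyl-CpG binding domain, was the other lower one (-0.80, adjusted p = 0.0245). It lost its call under both scalings, without control 1, control 2 or treated library 1, and against controls 3 and 4 alone (adjusted p from 0.0538 to 0.195). Zfp57 had 112.29, 66.73, 38.54 and 40.07 FPKM in controls and 110.27, 37.01, 277.96 and 207.38 with triclocarban, with library 2 the lowest of the treated. Its change was 1.08 (adjusted p = 0.151), and 1.65 without that library (adjusted p = 0.013).

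Genes of the methyl donor cycle, which makes the S-adenosylmethionine that DNA methyltransferases use, were higher in 3 and lower in 6 of 14 tested, beside 11.3% and 30.8% of all genes tested. The higher ones numbered 1 against controls 1 and 2 alone and 5 against controls 3 and 4 alone, with 6 lower in both, and quantile normalization gave 4 higher and 4 lower. The 2 subunit genes of the extrahepatic methionine adenosyltransferase moved apart. Mat2a, the catalytic subunit, had 70.39, 83.71, 139.42 and 85.75 FPKM in controls and 29.19, 29.78, 27.67 and 25.35 with triclocarban, a log2 change of -1.68 (limma adjusted p = 0.000484). Mat2b, the regulatory subunit, went from 619 ± 177 to 1356 ± 338 FPKM (SD, n = 4 per group), a log2 change of 1.14 (adjusted p = 0.00861), and was at 0.80 against controls 1 and 2 alone (adjusted p = 0.0663). Shmt1, the cytosolic serine hydroxymethyltransferase of the folate cycle, fell from 48.9 ± 7.08 to 9.31 ± 2.95 FPKM (-2.31, adjusted p = 0.000106). Ahcy, which removes the product of methylation, had 1.07 ± 0.621 and 2.05 ± 0.849 FPKM and was not called (0.56, adjusted p = 0.117). It passed under both other scalings, without control 1 and against controls 3 and 4 alone (0.75 to 0.94, adjusted p from 0.0144 to 0.0389).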

How the data were processed

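Per the labels' protocols, polyadenylated RNA of 8 libraries was read from both ends, 150 bases each. They describe a kit for total RNA and one for amplified cDNA, and which made these libraries is unclear. The authors deposited 1 table of FPKM values, 1 column per library, which was matched to its sample by name. The submitters' processing notes list STAR, StringTie, featureCounts, DESeq2 1.30.1 and the build mm10, with no role for each. Which tool made the FPKM, with which annotation, strand setting and handling of multiply mapped reads, is not given in the sources used here. Counts could not be recovered: 5.7 to 8.0% of low values were within 0.02 of whole fragments, where chance gives 4%. The depth of the libraries is therefore unknown.

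Identifiers were matched to GENCODE M21 for 1-based GRCm38 coordinates (87.4% of all). Symbols came from a separate reference of mouse gene names (95% of those tested). Members were matched by symbol. The test was limma 3.58.1 (eBayes with trend) in R 4.3.3 on log2(FPKM + 1), fitted to treatment alone, which left 6 residual degrees of freedom. Changes on this scale understate those of low genes. The limma script was tested on simulated data with known changes. Close copies were GENCODE transcripts of other genes with at least 95% identity over at least 150 bases. Alternatives were 2 other pseudocounts, 2 other filters, 2 scalings, a replicate block, eBayes without trend, and leaving out each library or a pair of controls. The members, lists and alternatives were chosen with earlier results of these data known. Every member is named, with the largest called rise and fall of each wider list, and the 3 nearest profiles of Dnmt1, Dnmt3a, Uhrf1, Tet3 and Dppa3. Other genes in the text (Cdca7, Trdmt1, Setd2, Idh2, Cxxc5, Gadd45a, Gadd45g, Mbd4, Zfp57, Mat2a, Ahcy) were chosen after their values were seen.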

Additional observations from a re-analysis of the deposited data

Results flagged for a closer look

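Among the 20 groups of 4 values formed by the 10 genes, 4 held a library far from the other 3 by Dixon's test, and chance gives about 1 in 20. The share among all genes tested was not computed, so the count cannot be read as particular to these genes. All 4 were triclocarban library 2, at 118.91 FPKM for Uhrf1, 104.3 for Tet3, 28.77 for Dnmt3l and 1.44 for Tet1. It was the highest treated library for Uhrf1 and Tet3 and the lowest for Dnmt3l and Tet1. This library also had the lowest FPKM sum (477882) and the fewest genes at 1 FPKM or more (11788, against 11855 to 13541 in the others), and their part in these values was not tested.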

How the results depend on the processing

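Uhrf2 stayed lower and past the threshold under all 18 alternatives. Changes of sign were seen for genes that were not called: Dnmt3b at 0.089 with quantile normalization and 0.013 without controls 1 and 2, Dnmt3l at -0.385 and Dnmt3a at -0.063 without controls 3 and 4, and Dnmt3l between -0.091 (without control 4) and 0.41 when 1 library was left out. Members called higher (1) numbered 0 with no filter, 3 with median-of-ratios scaling, 2 with quantile normalization and 4 without controls 1 and 2. Members called lower (2) numbered 1 with a filter of 5 FPKM, where Tet1 was not tested, 1 with either scaling and 1 without controls 3 and 4. Leaving out 1 library gave 0 to 1 higher and 1 to 2 lower. Over all genes (1466 higher, 3981 lower), 2492 were lower with the filter of 5 FPKM, a like share of fewer genes tested (31.0% of 8050 beside 30.8% of 12941), and 2638 were higher with median-of-ratios scaling, 2915 with quantile normalization, 2838 without controls 1 and 2 and 695 without controls 3 and 4. Leaving out 1 library gave 953 (without control 4) to 1860 higher and 3469 to 4180 lower. In the wider list (9 higher, 20 lower), 10 were lower with the filter of 5 FPKM and 9 with quantile normalization, and 14 were higher without controls 1 and 2 and 5 without controls 3 and 4. Leaving out 1 library gave 6 to 10 higher and 18 to 23 lower. The cause of the other moves was not tested.

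The replicate numbers are shared between the groups, and nothing in the labels says whether they pair the libraries. Correlations across genes of deviations from the group means were 0.338, 0.053, 0.095 and 0.104 for same-numbered libraries. For differently numbered ones they were -0.293 to 0.144. These values do not settle whether the libraries were paired. With the replicate number as a block, 2 members were higher, the added one being Uhrf1 (adjusted p = 0.0178). Depth is unknown, so no counting error is given for low genes such as Tet2.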

Other observations

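Several pathway genes lay below the filter and were not tested. Bhmt, which encodes a methyltransferase that remakes methionine from betaine, had a mean of 2.08 ± 1.37 FPKM (SD, n = 4) in controls, against 0.179 ± 0.184 (SD, n = 4) in treated libraries. By library it had 0.64, 1.18, 3.39 and 3.11 FPKM in controls and 0.43, 0.0, 0.19 and 0.09 with triclocarban, so controls 3 and 4 carried most of the control mean. Dnmt3c, a rodent de novo methyltransferase gene known from male germ cells, had 0.63, 1.16, 1.03 and 1.29 FPKM in controls and 0.63, 0.29, 0.56 and 0.03 with triclocarban. Tdg, the glycosylase that removes oxidized methylcytosine, was listed at 0 in all 8 libraries. Close copies were searched for the members only, not for Tdg, and the handling of multiply mapped reads is not given. Whether Tdg transcripts were absent from these embryos was therefore not tested.

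Dppa3-ps had 6.67 to 31.84 FPKM, far below Dppa3 itself, which never fell under 1726.72.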
